A study of Mus musculus with 36 samples.

Results

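A set of 2498 genomic regions was accessible in mouse cardiac fibroblasts and less accessible at every sampled day of reprogramming towards heart muscle cells. The members were chosen by their measured values. Counts scaled to a common library size (CPM) were computed over the 184025 regions with a summed count of at least 90 across 18 libraries, after the 5 regions with the most counts were left out. A region was a member where the fibroblast mean of log2(CPM + 0.5) exceeded the mean at each of days 2, 3, 7, 14 and 21 by at least 1.5, which is a fold of 2.83 on that scale. The members made up 1.36% of those 184025 regions, out of 1393120 regions in the count table. The same rule with the sign turned gave 4774 regions that were higher at every day.

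The assay was ATAC-seq: an engineered transposase cuts and tags DNA that is not tightly packed, so that read counts over a region reflect how open it is. All cells came from hearts of newborn CD-1 mice that carry the alpha-MHC-GFP reporter, whose green signal is driven by a heart muscle myosin promoter. Outgrowth cultures of these hearts were sorted for Thy1 without GFP, which gives mainly fibroblasts. The fibroblast group was infected with a dsRed retrovirus, received no inhibitor and was sorted for dsRed at day 7. The 5 reprogrammed groups were infected with retroviruses for Gata4, Mef2c and Tbx5 (GMT), the transcription factors used to turn fibroblasts into cardiomyocyte-like cells. Their medium held the TGF-beta pathway inhibitor sb431542 and the Wnt pathway inhibitor xav939, and GFP-positive cells were collected at day 2, 3, 7, 14 or 21. Each group had 3 libraries, which the labels call biological replicates. Factors, inhibitors and sorting gate therefore differ together between fibroblasts and every GMT group, and only the day 7 group matches the fibroblasts in time, so their parts in a difference cannot be told apart. The sort also keeps only GMT cells in which the heart muscle reporter was on, and all 5 comparisons share the same 3 fibroblast libraries.

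Fibroblasts build and remodel the extracellular matrix, the network of fibronectin, collagens and other proteins around cells. Genes of this kind carry many enhancers, which are open in fibroblasts and are bound by factors such as AP-1 and TEAD proteins, whereas cardiomyocytes keep other enhancers open. Sites that are open only in the starting cell type are known to close when cells are converted to another type. In a bulk library, fewer cells with an open region and less opening per cell cannot be told apart.

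The table covers chromosome 1, chromosomes 10 to 16 and chromosome 17 up to 79.1 Mb, in build mm9. No annotation or sequence of that build was used, so regions are given by position, and neither the nearest genes nor marker genes of the labelled cell type were examined. Library totals ran from 2.29 to 23.2 M counts. The 5 regions left out took 5.15% to 50.6% of a library's counts, with 50.6% in fibroblast replicates 1 and 2 and 15.3% in fibroblast replicate 3. Replicates of a group differed by more than sampling noise in each of the 18 pairs (chi-square per degree of freedom 1.32 to 3.89), with the lowest value for fibroblast replicates 1 and 2.

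In fibroblasts the members were well above the typical region, and in GMT cells they were close to it. The median member had a mean of 9.58 CPM in fibroblasts, against 2.20 CPM for all 184025 regions. At days 2, 3, 7, 14 and 21 the median member had 1.95, 1.94, 1.45, 1.70 and 1.66 CPM, against 2.07, 2.04, 1.64, 2.11 and 1.89 CPM for all regions. The members thus had less signal in GMT cells than in fibroblasts, at a level close to that of the typical region. At day 21, 1926 members (77.1%) had a mean of at least 1 CPM, against 84.6% of all regions, and 43.7% lay above the median of all regions. No member lacked counts in all 3 day 21 libraries, and neither did any other of the 184025 regions. The level of a closed region was not measured, so the members are called lower rather than closed here.

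**Figure D1:**
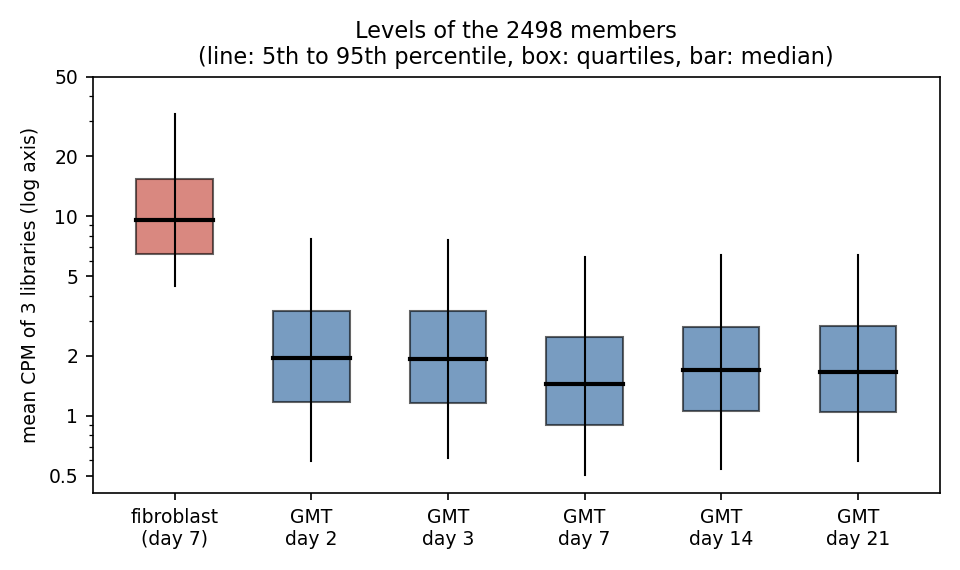
Mean CPM of 3 libraries for the 2498 members in fibroblasts and at each GMT day, on a log axis, with the bar at the median, the box at the quartiles and the line from the 5th to the 95th percentile. The median is 9.58 CPM in fibroblasts and between 1.45 and 1.95 CPM at the 5 days; the gap was set by the rule.

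The separation was visible in each library. The median of log2(CPM + 0.5) over members was 3.22, 3.21 and 3.52 in fibroblast replicates 1, 2 and 3, which is 1.67, 1.78 and 2.16 above the median of all regions in the same library. In the 15 GMT libraries the members' median ran from 0.91 to 1.45. Members held 3.01%, 3.07% and 3.67% of the counts in the fibroblast libraries and 0.516% to 0.756% in the GMT libraries. In 2440 members (97.7%) the lowest fibroblast library was above the highest of the 15 GMT libraries, a pattern shown by 6.83% of all regions; the rule used these values, so this is a description. Members without a single count numbered 0 in each fibroblast library and 0 to 215 in the GMT libraries, and the 215 were in day 2 replicate 1, the library with the lowest total.

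**Figure D2:**
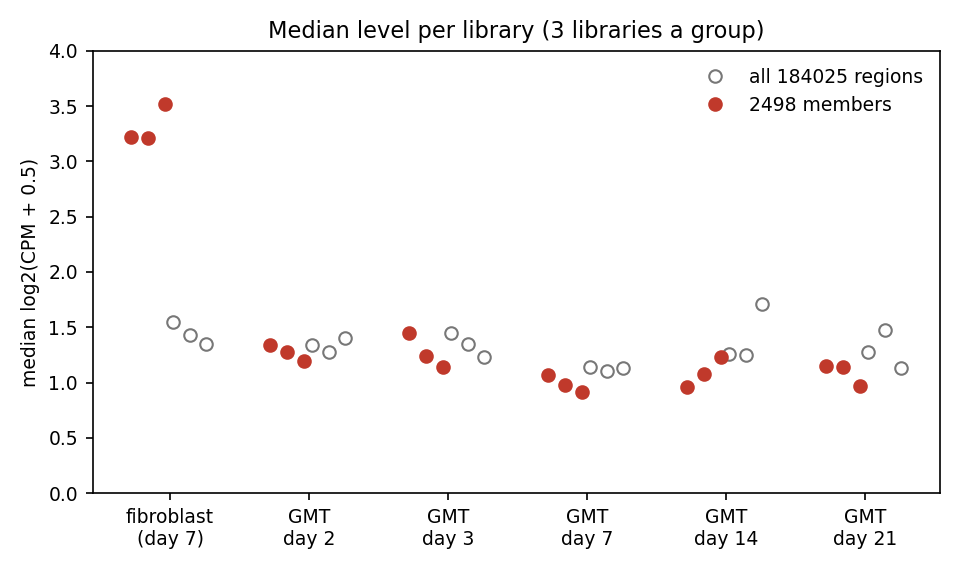
Median log2(CPM + 0.5) in each of 18 libraries for the 2498 members (filled) and for all 184025 regions (open), 3 libraries a group. The members stand between 3.21 and 3.52 in fibroblasts and between 0.91 and 1.45 in GMT libraries, where both medians lie close together.

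The falls were of similar size at all 5 days, each being at least 1.5 by the rule. The median fall from fibroblasts, as a difference of log2(CPM + 0.5), was 2.04 at day 2, 2.02 at day 3, 2.31 at day 7, 2.19 at day 14 and 2.17 at day 21. Over all regions the median falls were 0.07, 0.05, 0.18, -0.01 and 0.04. A fall of at least 1.5 at a single day was found in 4.09%, 3.48%, 5.43%, 4.29% and 3.92% of all regions. The smallest of a member's 5 falls came most often at day 2 (790 members) or day 3 (759 members) and least often at day 7 (144 members), and the largest came most often at day 7 (792 members). Day 7 also had the fewest smallest falls (16714) and the most largest falls (49845) among all 184025 regions. Averaged over days 7, 14 and 21, the fall exceeded that over days 2 and 3 in 1731 members (69.3%), with a median difference of 0.17 against 0.05 for all regions.

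On the log2(CPM + 0.5) scale the falls were slightly larger in members with more fibroblast signal. The smallest fall was at least 2 in 629 members, at least 2.5 in 115 and at least 3 in 19. When members were split into 4 equal classes by fibroblast level, the median fibroblast mean was 5.23, 7.99, 11.8 and 22.0 CPM, and the median fall at day 21 was 1.95, 2.18, 2.22 and 2.34. In 4 such classes by width that median ran from 2.12 to 2.20. In the 4 classes by fibroblast level the median fall at day 2 was 1.98, 2.04, 2.03 and 2.09. Their median level at day 21 was 0.885, 1.33, 2.14 and 4.01 CPM. A fall on the log2(CPM + 0.5) scale understates the change of low regions. Whether the order of the classes holds without the added 0.5 was not tested. Members were 200 to 9478 bases wide, with a median of 1428.5 bases against 1346 for all regions. On each chromosome they made up 0.990% (chromosome 17) to 1.64% (chromosome 1) of the regions that met the count minimum.

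Since the rule selects on the fibroblast libraries themselves, it was also applied without 1 fibroblast library at a time and the fall then read from that library. In the 2947 members chosen without fibroblast replicate 1, the median fall from that library to the mean of the 5 days was 1.91, against 2.16 in the libraries used and 0.21 over all regions. Without replicate 2 the 2918 members chosen gave 1.93, against 2.16 in the libraries used and 0.14 over all regions. Without replicate 3 the 2390 members chosen gave 2.14, against 2.11 in the libraries used and -0.06 over all regions. In the library left out, 78.2%, 77.4% and 78.9% of the chosen regions had a fall of at least 1.5, against 4.14%, 5.03% and 5.77% of all regions. The GMT libraries were the same in the choice and in this reading, so it bears on the fibroblast side alone.

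How many regions met the threshold depended on the scaling of the libraries. With effective library sizes from trimmed means of log ratios (TMM), 1470 regions met the rule, and with the 5 highest regions kept in the sums 432 did. The lowest of the 2498 members' smallest falls was 1.14 and 0.78 under these scalings, which shift all regions of a library nearly alike, so the sign largely follows from the rule. Keeping the highest regions moved the median fall of all regions to -0.36, -0.33, -0.10, -0.39 and -0.48 at days 2, 3, 7, 14 and 21. The members' medians were then 1.41, 1.45, 1.81, 1.59 and 1.44.

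The members with the deepest falls had little signal left at any day. At chr17:13090609-13091791, whose smallest fall of 3.57 was the largest of all members, the fibroblast libraries had 37.6, 52.9 and 23.9 CPM. The day 2 libraries there had 2.71, 2.61 and 2.14 CPM, and the day 21 libraries 2.87, 2.85 and 1.53 CPM. The fibroblast mean was 15.3 times the day 2 mean and 15.8 times the day 21 mean, and the 2 days overlapped.

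At chr12:41816290-41817379 the fibroblast libraries were close together, at 26.5, 24.5 and 27.3 CPM. Day 2 gave 2.03, 2.06 and 2.14 CPM, and day 21 gave 2.49, 2.28 and 1.07 CPM. Of the 6 regions with the deepest falls, 3 lie on chromosome 1, and these had fibroblast means of 28.3 ± 9.84 CPM (chr1:151954712-151957204), 45.3 ± 10.5 CPM (chr1:161322593-161324094) and 25.7 ± 8.09 CPM (chr1:45408145-45409956; SD, n = 3). Their day 21 means were 1.85 ± 0.620, 3.30 ± 0.900 and 1.07 ± 0.434 CPM. The sixth, chr11:28112585-28114344, had 15.8, 19.2 and 30.1 CPM in fibroblasts. Its day 2 libraries had 0, 0.825 and 5.71 CPM, where the count of 0 in the shallow replicate 1 allows up to 2.03 CPM (3 counts of that library, counting error only), and day 21 had 1.72, 0.855 and 1.07 CPM.

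The 4 members with the most fibroblast signal differed in how much of it they kept. Among them, chr1:71625818-71631841 had means of 154 CPM in fibroblasts and 9.98 CPM at day 21, and its libraries are given further below. The highest, chr1:174429790-174434030, had 266, 281 and 243 CPM in fibroblasts. It had 33.2, 85.3 and 95.2 CPM at day 2 and 66.1, 81.5 and 75.1 CPM at day 21, so that the fibroblast mean was 3.69 and 3.55 times those means. Day 2 replicate 1 was the low library there, as was day 3 replicate 1 at 32.4 CPM against 94.1 and 87.4 CPM.

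Per kilobase this region had 62.1 CPM in fibroblasts, slightly less than the narrower chr1:175696298-175698183 with 65.1 CPM per kilobase. The latter went from 136, 105 and 126 CPM in fibroblasts to 47.4, 35.6 and 41.7 CPM at day 2 and to 15.5, 24.2 and 27.9 CPM at day 21. At chr16:37787325-37791563 the fibroblast libraries had 106, 120 and 137 CPM and the day 21 libraries 27.8, 37.3 and 35.1 CPM. Its means at the 5 days all lay between 30.6 and 36.1 CPM, so after day 2 this region showed no further change beyond the spread of its libraries.

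The widest member, chr17:6933209-6942687, spanned 9478 bases. It had 157, 134 and 79.9 CPM in fibroblasts and 17.8, 33.9 and 20.1 CPM at day 21. The next widest, chr12:110803802-110810403 with 6601 bases, fell from 30.7, 31.9 and 28.0 CPM to 8.04, 7.98 and 5.90 CPM. Fibroblast libraries disagreed most at chr1:157150437-157151479, with 2.60 and 3.06 CPM in replicates 1 and 2 and 21.2 CPM in replicate 3. They were closest at chr14:46621408-46622250, with 4.85, 4.81 and 4.78 CPM.

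At the threshold the values ran on without a gap. The 2 members just inside it, chr12:76436837-76438702 and chr14:121676786-121677765, had their smallest fall at day 14 and at day 3, equal to 1.5 when rounded. The first had 13.5, 14.4 and 12.3 CPM in fibroblasts and 3.57, 4.31 and 5.56 CPM at day 14. Just outside lay chr11:10443219-10444372, with 4.16, 4.37 and 6.15 CPM in fibroblasts and 4.74, 0.550 and 0.713 CPM at day 2, and chr1:164676055-164677369, with fibroblast means of 9.17 ± 3.66 CPM (SD, n = 3).

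Some members lay close to one another. When members separated by gaps of at most 10000 bases were chained, 2136 stood alone and 362 (14.5%) formed 143 stretches of at least 2, of which 23 held at least 3. The largest stretches held 33 and 15 members. The share to expect for a set of this size among the kept regions was not computed, so these counts are a description. Some members adjoin, such as chr1:45415708-45417022 and chr1:45417023-45418902, so the counts also depend on how regions were split. Among the 4774 regions that were higher at every day, a larger set, 27.6% lay in stretches of at least 2, yet the largest of those held 10.

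The longest stretch, chr1:71625818-71693829, covered 68.0 kb and held 33 members among 41 regions meeting the count minimum, and the members filled 64.3% of it. Summed over these 33, the fibroblast libraries had 629.8, 629.9 and 727.0 CPM. The sums were 119.8, 128.6 and 127.0 CPM at day 2, 82.7, 159.8 and 86.1 CPM at day 3, and 65.1, 88.2 and 58.1 CPM at day 7. They were 68.0, 67.3 and 73.2 CPM at day 14 and 64.3, 58.4 and 52.8 CPM at day 21. All 15 GMT libraries were far below the 3 fibroblast libraries, and the day 21 libraries were below all 3 day 2 libraries. The fibroblast mean of 662 ± 56.1 CPM was 5.29, 6.05, 9.40, 9.53 and 11.3 times the means at the 5 days in order. The 8 other regions in the stretch summed to 90.9 ± 17.01 CPM in fibroblasts and 22.0 ± 3.97 CPM at day 21 (SD, n = 3), and 7 of them were lower at all 5 days.

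**Figure D3:**
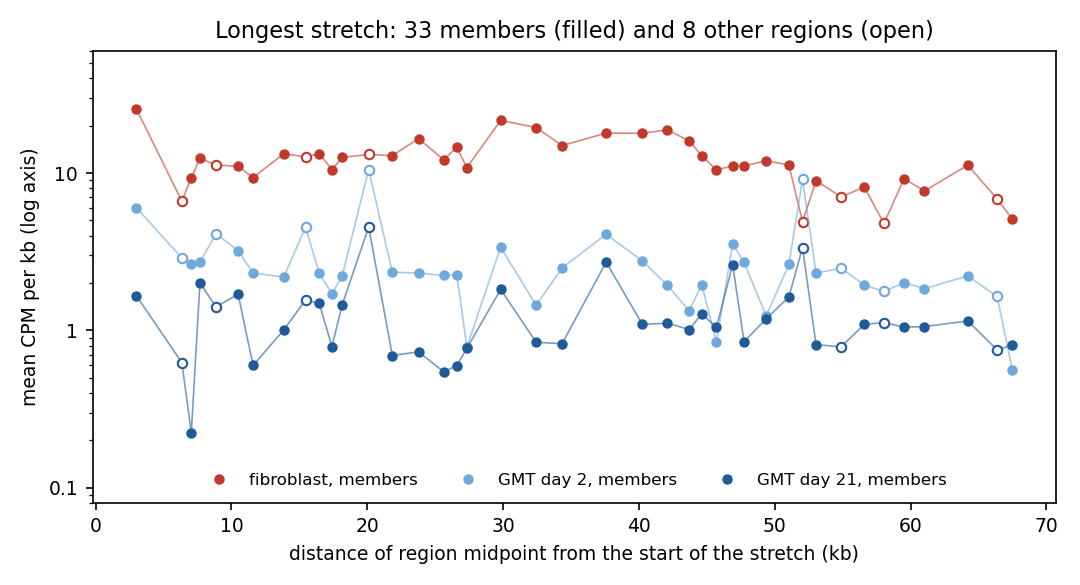
Mean CPM per kilobase (log axis, 3 libraries a group) of the 41 regions in the longest stretch against the distance of their midpoints from its start, for fibroblasts and GMT days 2 and 21. The 33 members (filled) fall along the whole 68.0 kb, and 1 of the 8 other regions (open) is higher at day 2 than in fibroblasts.

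The stretch with 15 members, chr10:85788855-85829394, covered 40.5 kb and 21 regions. Its members summed to 331.2, 275.2 and 302.0 CPM in fibroblasts. They gave 40.6, 42.3 and 49.6 CPM at day 2, 29.4, 28.8 and 29.9 CPM at day 7, and 27.0, 54.4 and 38.9 CPM at day 21. All 3 day 7 libraries were below all 3 day 2 libraries. Those of day 3 (34.1, 42.3 and 35.8 CPM), day 14 (30.3, 42.0 and 38.0 CPM) and day 21 overlapped with day 2. The 6 other regions of this stretch were lower at all 5 days as well, from 188.9 ± 11.1 CPM in fibroblasts to 92.4 ± 7.67 CPM at day 21 (SD, n = 3).

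Of the next stretches, chr1:174429790-174461336 held 6 members among 16 regions and begins with the member of highest fibroblast level. Its members summed to 360 ± 22.9 CPM in fibroblasts and 91.1 ± 10.97 CPM at day 21, and 4 of its 10 other regions were higher than fibroblasts at 1 day or more. All 5 regions of chr17:73296455-73303208 were members. There the fibroblast sums of 193.7, 161.4 and 114.1 CPM varied more, and the GMT sums ranged from 11.1 CPM in day 14 replicate 3 to 85.4 CPM in day 3 replicate 2, against 20.1 and 19.3 CPM in the other libraries of day 3. At chr1:45408145-45418902, again with all 5 regions as members, fibroblast sums of 138.1, 126.0 and 117.5 CPM stood against 20.3, 23.4 and 17.2 CPM at day 21.

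Regions beside the members tended to be lower as well, by less. Among 1178 regions that were no members but lay within 1 kb of one, the median fall, averaged over the 5 days, was 0.34. It was 0.23 at 1 to 2 kb, 0.09 at 10 to 20 kb and 0.04 beyond 200 kb. The share lower at all 5 days was 48.5% within 1 kb and 30.9% beyond 200 kb, against 32.8% of all regions that were no members. The share higher at all 5 days was 20.1% within 1 kb and 29.0% beyond 200 kb. Near regions also had more fibroblast signal, with a median log2(CPM + 0.5) of 1.64 within 1 kb and 1.28 beyond 200 kb. The part of this signal in the falls was not tested.

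**Figure D4:**
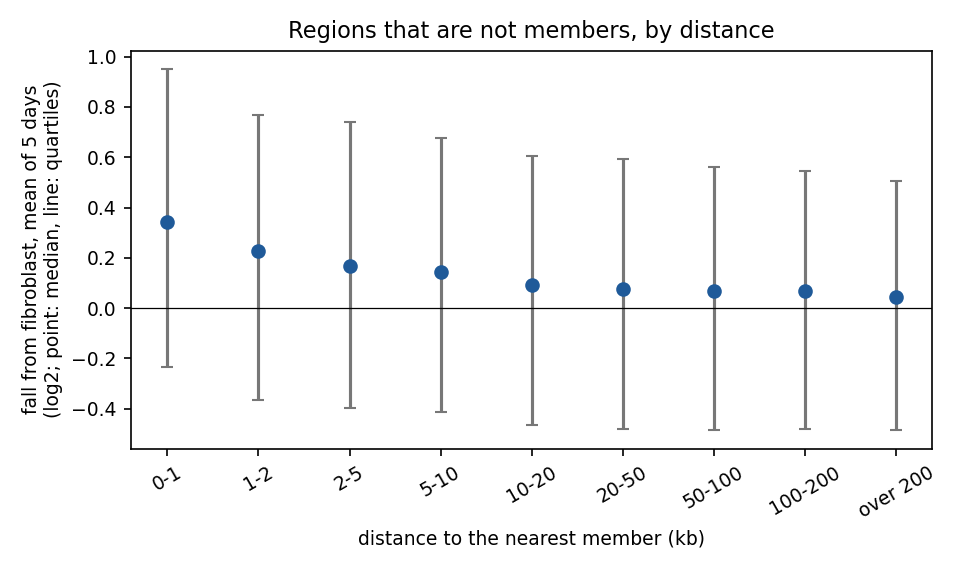
Fall from fibroblasts averaged over the 5 GMT days, as a difference of log2(CPM + 0.5), for regions that are not members, by distance to the nearest member (point: median, line: quartiles). The median goes from 0.34 within 1 kb to 0.04 beyond 200 kb, and the quartiles overlap widely.

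Whether members changed further among the GMT groups was tested, since these contrasts were not used in choosing them, although the rule puts an upper limit on a member's level at every day. The edgeR quasi-likelihood test was fitted on all 18 libraries and 144810 regions that passed its filter on low counts, with Benjamini-Hochberg adjustment over all of them. Of the 2498 members, 2377 passed that filter, and the other 121 were not tested. The filter counted the fibroblast libraries too, where members are high by the rule. With the 15 GMT libraries alone, 1888 members and 156105 regions passed. Members with few counts in GMT cells, which are hard to call, are therefore among the 2377. No member was called between consecutive days by edgeR or by DESeq2. At an unadjusted p under 0.05 edgeR gave 59 of 2377 members for day 3 against day 2, 120 for day 7 against day 3, 122 for day 14 against day 7 and 70 for day 21 against day 14. Over all 144810 tested regions the counts at that threshold were 5247, 9196, 10373 and 4757. In this fit the share of members was thus below that of all regions at each step. With library totals alone it was above for day 7 against day 3 (158 of 2377 members, 8568 of 144810 regions). It was also above for day 21 against day 14 (52 members, 2553 regions), and below at the other steps. At these steps it was also above in some fits that left out a library. At the adjusted threshold, the shares of all tested regions called were 0.0%, 0.00829% (0.00138% higher and 0.00691% lower), 0.0% and 0.0%. The median log2 fold changes of members were 0.01, -0.17, -0.04 and 0.07 in that order. With library totals alone they were -0.11, -0.38, 0.18 and 0.15, so the sign of the first and the third rests on the scaling.

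Between day 21 and day 2, edgeR called 2 members higher and 9 lower at an adjusted p under 0.05, against 0.572% and 0.871% of all tested regions. The members called were 0.0841% and 0.379% of those tested. Neither share was above the background, but both include members that passed the filter through their fibroblast counts. The median log2 fold change was -0.14 over members and 0.02 over all regions. DESeq2 called 3 higher and 9 lower, against 683 and 1180 of all 144810 tested regions. With the 15 GMT libraries alone, edgeR called 1 of 1888 members higher and 4 lower, against 670 and 1078 of 156105 regions. The count of 11 depended on single libraries. Leaving out replicate 1, 2 or 3 of day 2 gave 13, 4 or 2 calls. Leaving out replicate 1, 2 or 3 of day 21 gave 2, 1 or 4. Day 2 replicate 1, day 3 replicate 1 and day 14 replicate 3 had been set apart by earlier results. Without them edgeR called 3 of 2491 members higher and 30 lower, against 1652 and 2253 of 173382 regions.

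With days 14 and 21 pooled against days 2 and 3, which sets 6 libraries against 6, edgeR called 3 members higher and 77 lower. These were 0.126% and 3.24% of the members tested, against 2.5% and 3.66% of all tested regions (6.17% in either direction). The rule caps a member's level at early and late days alike, and the difference between these shares was not tested. The median log2 fold change was -0.15 over members and 0.03 over all regions. Of the members tested, 65.3% had a negative estimate, against 47.4% of all regions. DESeq2 called 3 higher and 63 lower, against 2721 and 4319 of all 144810 tested regions. With the 15 GMT libraries alone, edgeR called 2 of 1888 members higher and 64 lower, against 3215 and 4972 of 156105 regions. The total of 80 became 52 when replicate 3 of day 2 was left out, 38 when replicate 1 of day 14 was and 49 when replicate 1 of day 21 was.

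The 77 members that fell further had log2 fold changes from -2.22 to -0.72, with a median of -1.08. In 27 of them all 6 late libraries were below all 6 early ones. The test that called them used these same 12 libraries, and the share over all regions was not computed, so this is a description. They had more fibroblast signal than most, with a median of 20.3 CPM against 9.58 CPM over all members. The part of this higher signal in the calls was not tested. Leaving out each of the 12 libraries in turn, 17 of the 77 were called every time.

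The first region of the longest stretch was the clearest of them. At chr1:71625818-71631841, 6023 bases wide, the fibroblast libraries had 143.9, 153.5 and 164.0 CPM. Day 2 gave 41.3, 29.7 and 37.8 CPM and day 3 gave 22.9, 47.9 and 25.9 CPM. Day 7 gave 15.8, 22.8 and 14.9 CPM, day 14 gave 9.69, 16.96 and 15.7 CPM and day 21 gave 10.7, 9.12 and 10.1 CPM. All late libraries were below all early ones, and the day 21 libraries were close together. By edgeR the log2 fold change of day 21 against day 2 was -1.70 (SE 0.33, adjusted p 0.00150), and that call was made in 13 of 14 alternatives, whose adjusted p ran from 1.44e-08 to 0.956, the last with no filter on low counts. For late against early days it was -1.46 (SE 0.23, edgeR adjusted p 1.47e-05), called in all 20 alternatives, with a highest adjusted p of 0.0190.

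In this stretch 32 of the 33 members were tested. Late against early, edgeR called 6 of them lower, 31 had a negative estimate and the median log2 fold change was -0.71. The count of 6 was sensitive to single libraries. It was 1 without day 3 replicate 2, 3 without day 2 replicate 2, day 14 replicate 2 or day 21 replicate 3, and 11 without day 3 replicate 3, and DESeq2 called 4. In the stretch on chromosome 10, none of 14 tested members was called by edgeR and 4 had a negative estimate, with a median of 0.07. The difference between the stretches was not tested.

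The 3 members with the largest called falls between day 2 and day 21 had low counts. At chr1:71632524-71633209, in the same long stretch, the day 2 libraries had 2.71, 1.65 and 1.07 CPM and the day 21 libraries 0.383, 0 and 0.0766 CPM. These are 19 against 3 counts, and day 2 was 11.9 times day 21 with an exact 95% binomial interval of 3.52 to 63.0 that covers counting error only. EdgeR gave a log2 fold change of -3.25 (SE 0.87, adjusted p 0.0242), which was lost, with an adjusted p of 0.0839 to 0.225, without day 2 replicate 2, day 21 replicate 2 or day 21 replicate 3.

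At chr11:93769090-93770744 the libraries fell from 2.71, 3.30 and 4.64 CPM at day 2 to 0.766, 0.570 and 1.15 CPM at day 21, with no overlap. The edgeR log2 fold change was -1.80 (SE 0.47, adjusted p 0.0263; 0.00975 to 0.956 over 14 alternatives, 7 of which made the call). At chr12:67803351-67804921 they fell from 3.38, 3.44 and 3.57 CPM to 0.957, 1.43 and 0.766 CPM, again with no overlap. Here edgeR gave -1.72 (SE 0.48, adjusted p 0.0398; 0.0230 to 0.956 over 14 alternatives, 4 of which made the call). Leaving out any 1 of the 6 libraries ended both of these calls, except day 2 replicate 1 for the region on chromosome 11.

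The rule keeps every member below its fibroblast level at day 21, and this held for both members called higher at day 21 than at day 2. At chr14:13832354-13834567 the fibroblast libraries had 35.2, 25.4 and 30.1 CPM. Day 2 gave 8.12, 2.89 and 2.14 CPM and day 21 gave 9.38, 13.1 and 6.74 CPM, so day 2 replicate 1 lay within the range of day 21. The edgeR log2 fold change was 1.47 (SE 0.35, adjusted p 0.0138), and the adjusted p was 0.0596 to 0.186 without day 2 replicate 2 or 3 or day 21 replicate 1 or 2. Late against early, it was 1.33 and was called in 19 of 20 alternatives. For day 21 against day 2, edgeR called no member higher with library totals alone or with no filter on low counts.

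At chr13:60326096-60328987 the fibroblast libraries had 32.2, 34.1 and 42.4 CPM. Day 2 gave 2.71, 3.85 and 3.21 CPM and day 21 gave 7.47, 8.55 and 7.89 CPM, with no overlap. The edgeR log2 fold change was 1.30 (SE 0.36, adjusted p 0.0415), and no fit without 1 of the 6 libraries made the call, with adjusted p from 0.0865 to 0.193. Nor did the fits with library totals alone or with no filter on low counts. The fibroblast mean was 4.55 times the day 21 mean, down from 11.1 times the day 2 mean.

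**Figure D5:**
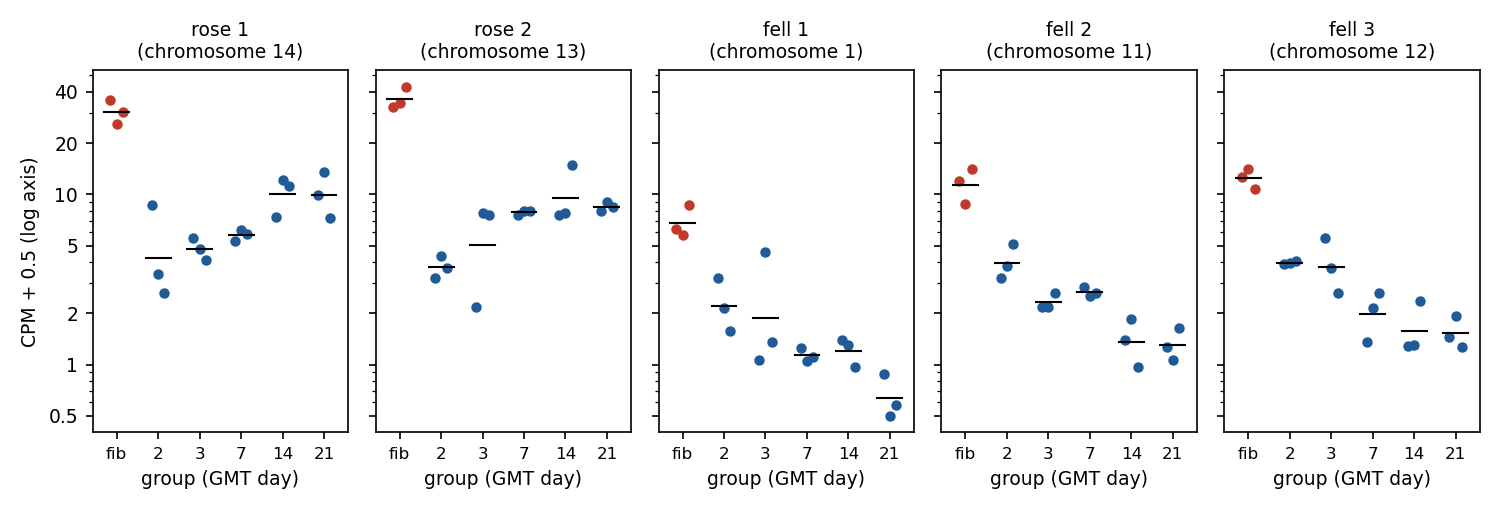
CPM + 0.5 (log axis) in each library for the 5 members with the largest called changes between day 2 and day 21, in fibroblasts (fib) and at GMT days 2 to 21, with lines at the geometric means. The panels for chromosomes 14 and 13 rise between day 2 and day 21 and stay below fibroblasts, as the rule requires, and those for chromosomes 1, 11 and 12 go on falling.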

How the data were processed

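Per the labels, ATAC-seq was done on 36 samples, of which 18 have a column in the count table used here; the others were not analysed here. The authors deposited whole-number read counts per region, with no scaling applied. Bowtie2, Picard, MACS2 and edgeR on build mm9 were used, per the submitters' processing notes. Not given in the sources used here are their versions, any shift of reads for the transposase and whether libraries were pooled for peak calling; the last 2 could move or split a region. The table as held covers part of the genome, and coordinates are printed as it gives them.

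The rule for members, and the regions and tests reported, were chosen with earlier results of these data known. CPM used column sums over the 184025 regions meeting the count minimum of 90. Tests used edgeR 4.0.16 (R 4.3.3): filterByExpr (minimum count 10, minimum total 15), TMM, glmQLFit with robust estimation on 18 libraries in 6 groups (12 residual degrees of freedom, common biological coefficient of variation 23.8%) and two-sided glmQLFTest, with a region called at an adjusted p under 0.05. The test was checked on simulated counts. DESeq2 1.42.0, other scalings and filters, a replicate block and fits without single libraries were alternatives. P-values measure the spread between these samples only, and intervals cover counting error only, as reads carry no molecular identifiers.

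Regions named are the 6 members with the largest smallest fall, the 4 with the highest fibroblast level, 2 on each side of the threshold, the called members with the largest day 21 against day 2 changes (up to 3 each way), the 2 widest, those with the smallest and largest fibroblast spread, and the 4 stretches with the most members. The stretch on chromosome 1 with 5 members tied with that on chromosome 17 and was named after its values were seen. Planned gene lists and motif counts were not run, as no annotation or sequence of this build was used.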

Additional observations from a re-analysis of the deposited data

How the results depend on the processing

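The number of members was 2498 and became 1470 with TMM sizes, 1620 with log2(CPM + 1), 7969 with a fall of 1, 629 with a fall of 2 and 432 with the highest regions kept. Leaving out 1 library gave 2274 to 2947. The median fall was 2.14 with all fibroblast libraries and 1.91 to 2.14 in the library left out. Stretches of at least 2 numbered 143, with 95 at gaps of 5000 bases and 368 at 50000. The 11 calls for day 21 against day 2 became 2 with library totals alone, 7 with the summed count of 90 as filter, 5 with the 15 GMT libraries alone (1888 members tested), 33 without the libraries that earlier results set apart (day 2 replicate 1, day 3 replicate 1 and day 14 replicate 3), 0 with no filter and 1 to 13 without 1 library. The 80 calls for late against early days became 35 with library totals alone, 1 with no filter and 38 to 93 without 1 library. Library totals alone moved the median log2 fold change of all regions by day 7 against day 3 to -0.23. Other alternatives left these counts within 1.5 times, and the consecutive days stayed at 0 calls in each. None of the 11 members called for day 21 against day 2 changed sign. Signs of the other members called late against early were not compared. The members' median turned for day 14 against day 7 (-0.04) to 0.18 with library totals alone, 0.01 without day 7 replicate 1 and 0.03 without day 14 replicate 1. For day 3 against day 2 (0.01) it ran from -0.11 with library totals alone to 0.15 with no filter, and for day 21 against day 14 (0.07) it was -0.003 without day 14 replicate 1. The causes were not tested.

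Over all groups, replicate numbers did not pair libraries: deviations of same-numbered libraries had a median correlation of 0.006 over 45 pairs, 2 of them above 0.1. Among 90 pairs of other numbers, 3 were above 0.1. Both same-numbered pairs above 0.1 lay between days 2 and 3, where the correlations were 0.282, 0.189 and 0.091 for replicates 1, 2 and 3. Pairs of other numbers there ran from -0.261 to 0.198. Libraries of days 2 and 3 thus deviated partly together, also across replicate numbers, while the main fit of late against early days took them as independent. With the replicate block the calls were 10 and 74, and those in the longest stretch 3 in place of 6. Depth limits the low members: in the shallowest GMT library 215 members had no count, and there 3 counts equal 2.03 CPM.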
